A study of Homo sapiens with 6 samples.

Results

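Zinc finger genes of the C2H2 type lie in tandem clusters. Examined here were 5 chosen clusters outside chromosome 19, and other such clusters were not examined. They hold 42 listed genes on chromosomes 7, 8, 12 and 16, chosen by gene name and position, whose type of finger was not checked. Of these, 37 had an array row of their own, among 18404 genes tested. Their transcripts were measured in BE(2)-C, a long-established human line from a neuroblastoma, on Affymetrix arrays, 1 array per sample. One group of 3 samples had received 5 µM BIX01294 for 24 h and the other, also of 3 samples, 0.05% DMSO, the solvent, for 24 h; both were grown in medium with dialyzed serum. The samples are described as independent, without a culture or day for each, so p-values measure the spread between these samples, which may be technical.

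Most C2H2 zinc finger proteins bind DNA through an array of fingers, each holding a zinc ion, and many carry a KRAB domain, which recruits the corepressor TRIM28 and with it SETDB1, a methyltransferase of histone H3 lysine 9, to silence transposable elements and other targets. The genes arose by tandem duplication, mostly on chromosome 19, where their bodies are known to carry the silencing mark and to be bound by ZNF274, itself a KRAB zinc finger protein. BIX01294 inhibits the products of EHMT2 and EHMT1, a pair of enzymes that methylate the same lysine. The question addressed was which of these 5 clusters fell in BIX01294 as the zinc finger genes of chromosome 19 did.

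Of the 37 measured members, 9 fell, 1 rose and 27 did not pass the test. A member was counted when its adjusted p in limma, corrected by the Benjamini-Hochberg method over all 18404 genes, was under 0.05. Of all genes 10.7% were lower, 12.9% were higher and 23.6% passed in either direction, against 24.3% lower and 2.70% higher among the members. Of the 237 measured genes with a ZNF symbol on chromosome 19, 128 were lower (54.0%) and 2 higher. Another 220 ZNF genes were neither on chromosome 19 nor members, and of these 35 were lower (15.9%) and 15 higher. These other ZNF genes were not sorted by cluster and may include clustered genes. All ZNF groups were taken by symbol. They include pseudogenes and antisense transcripts named after a ZNF gene, such as ZNF217-AS1 and, on chromosome 19, ZNF667-AS1. The median log2 change, BIX01294 minus DMSO, was -0.05 over the members, -0.29 over the chromosome 19 genes, -0.04 over the other ZNF genes and -0.01 over all genes. The members' share of falls thus stood above the background and below that of chromosome 19, while their median lay close to that of the other ZNF genes. No test of the list was made, since its genes were chosen with earlier results of these data known. The BIX01294 and DMSO arrays did not overlap in 10 members with lower values and in 1 with higher values, where 18.7% and 21.4% of all genes did not overlap.

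**Figure D1:**
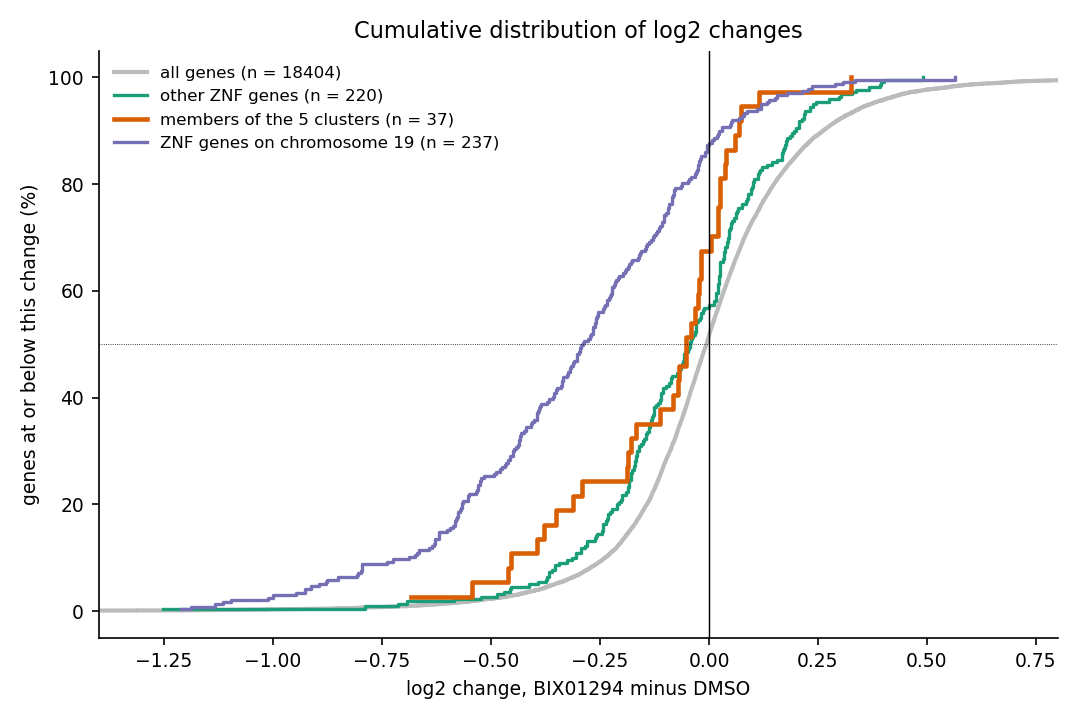
The plot gives, for each log2 change (BIX01294 minus DMSO, x axis), the percentage of genes at or below it (y axis), for all 18404 genes, 237 ZNF genes on chromosome 19, 220 other ZNF genes and the 37 members. The chromosome 19 curve lies to the left with a median of -0.29, while the members' curve has a median near that of the other ZNF genes and is narrower at the top, with 2.70% of members and 6.82% of other ZNF genes called higher. The 9 members that fell make up its lower end.

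The falls were spread over all 5 clusters. On chromosome 7 near the centromere 2 of 9 measured members fell and 1 rose, and in the distal cluster of the same chromosome 2 of 9 fell. On chromosome 8 the count was 1 of 6, on chromosome 12 it was 2 of 6, and on the short arm of chromosome 16 it was 2 of 7. The cluster medians were -0.02, -0.11, -0.02, -0.13 and -0.08 in that order, between that of all genes and that of chromosome 19. They moved with single arrays: the first ran from -0.08 without BIX01294 replicate 3 to 0.01 without BIX01294 replicate 2, the distal chromosome 7 median from -0.16 without DMSO replicate 2 to -0.06 without DMSO replicate 3, and that of chromosome 16 from -0.13 without BIX01294 replicate 2 to -0.05 without DMSO replicate 2. Those of chromosomes 8 and 12 ran from -0.04 to -0.01 and from -0.17 to -0.11. With each array centred on its median, those of the first chromosome 7 cluster and of chromosome 8 were 0.01 and 0.01 instead, and after quantile normalization that of chromosome 8 was 0.0067. No cluster moved as a whole, and each held members with a log2 change above 0.

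**Figure D2:**
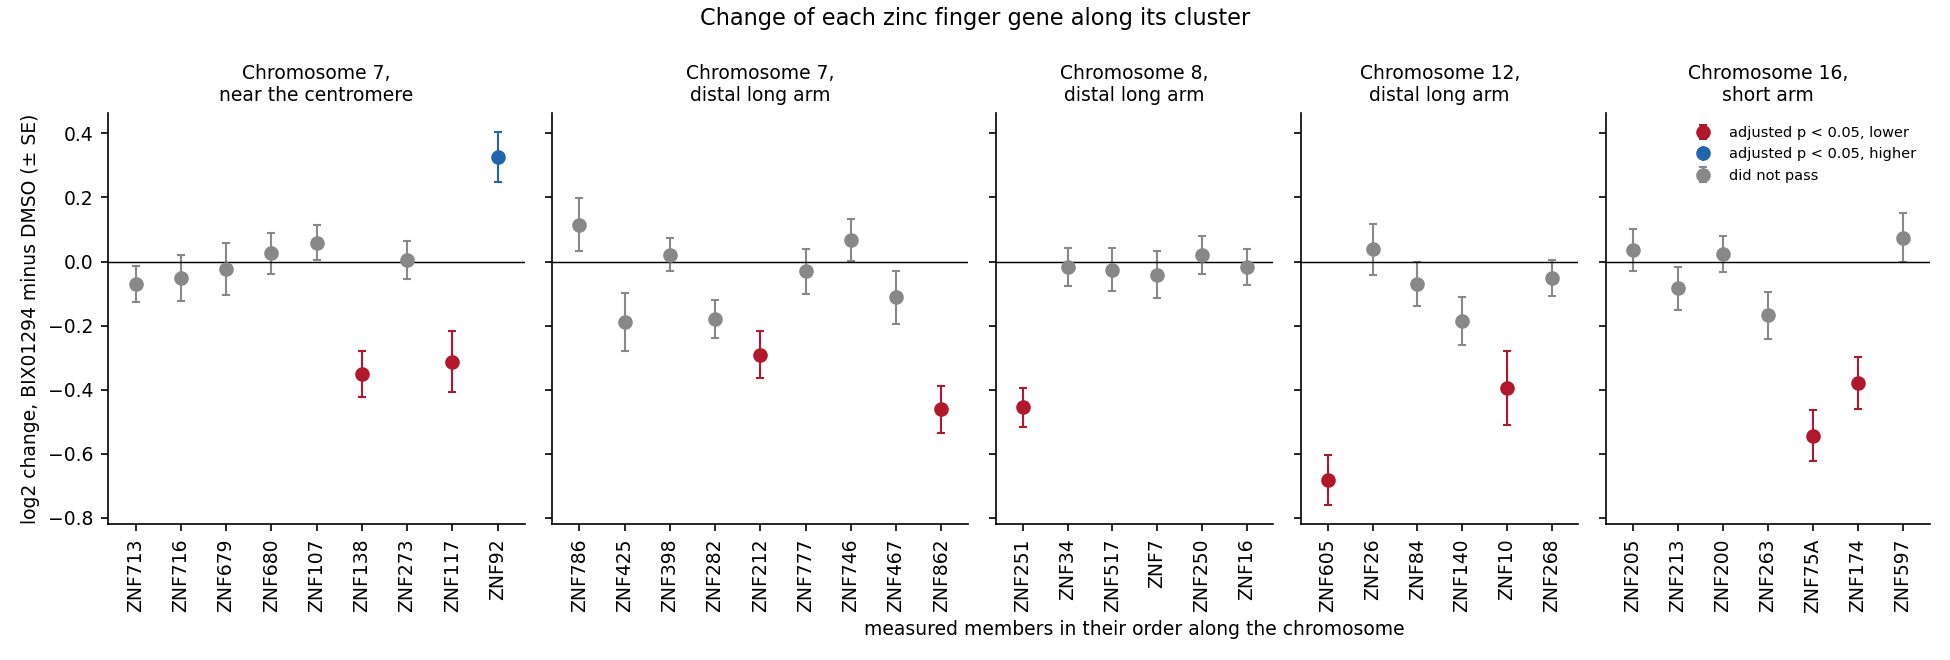
Each point is the log2 change of 1 measured member (y axis, BIX01294 minus DMSO, bars ± SE, 3 arrays per group), with the members placed in their order along the chromosome (x axis), 1 panel per cluster. Red points passed an adjusted p of 0.05 with a lower value, the blue point with a higher one, and grey points did not pass; the red points run from ZNF605 at -0.68 to ZNF212 at -0.29 and have grey points between them, except ZNF75A and ZNF174, which follow each other.

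ZNF605, on chromosome 12, fell most among the members. Its log2 values were 8.22, 8.20 and 8.08 in the DMSO arrays and 7.57, 7.34 and 7.55 in the BIX01294 arrays. The lowest DMSO array stood well above the highest BIX01294 array, and the mean went from 8.17 ± 0.08 to 7.49 ± 0.13 (SD, n = 3 per group). This was a change of -0.68 ± 0.078 (SE) with an adjusted p of 0.000716 in limma, 62.3% of the DMSO level, and it ranked at number 29 of 494 ZNF genes counted from the largest fall.

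ZNF75A, a KRAB zinc finger gene on chromosome 16, measured 9.28, 9.36 and 9.07 in DMSO and 8.67, 8.67 and 8.73 in BIX01294. The BIX01294 arrays lay within a narrow band below all DMSO arrays, a change of -0.54 ± 0.079 (SE) and an adjusted p of 0.00208 in limma. A second, dimmer row of ZNF75A moved alike, by -0.49.

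ZNF862, the outermost gene of the distal chromosome 7 cluster, measured 7.75, 7.58 and 7.74 in DMSO and 7.25, 7.32 and 7.13 in BIX01294. ZNF251, a KRAB zinc finger gene and the outermost member on chromosome 8, measured 8.06, 8.03 and 8.0 in DMSO and 7.63, 7.48 and 7.61 in BIX01294. Neither gene's groups overlapped, and both changed by nearly the same amount: ZNF862 fell 1.38-fold (-0.46 ± 0.073 SE, adjusted p 0.00306 in limma) and ZNF251 fell 1.37-fold (-0.46 ± 0.061 SE, adjusted p 0.00141 in limma). ZNF174 on chromosome 16, whose SCAN domain lets it pair with other SCAN proteins, went from 8.48 ± 0.13 to 8.10 ± 0.09 (SD, n = 3 per group), with DMSO values of 8.54, 8.57 and 8.33 above BIX01294 values of 8.21, 8.04 and 8.06. The change of ZNF174 was -0.38 ± 0.080 (SE) with an adjusted p of 0.0109 in limma. These 5 genes, ZNF605, ZNF75A, ZNF862, ZNF251 and ZNF174, passed under all alternatives in which they were tested, except limma's treat against a minimum log2 change of 0.5, which called no member (ZNF862, whose level lies under the median, was not tested with the stricter filter), and ZNF605 and ZNF75A were the members whose change exceeded 0.5.

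The other 4 falls were less steady. ZNF138, a KRAB zinc finger gene near the centromere of chromosome 7, measured 8.84, 8.94 and 8.74 in DMSO and 8.56, 8.50 and 8.41 in BIX01294, without overlap (-0.35 ± 0.071 SE, adjusted p 0.00902 in limma). Its second row disagreed: that row lay at a mean level of 6.12 and differed by 0.13, and with the mean of both rows ZNF138 did not pass (-0.11, adjusted p 0.269). ZNF138 has close relatives in the same cluster, and which transcripts each row reports was not tested.

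ZNF212, in the distal chromosome 7 cluster, measured 8.28, 8.38 and 8.26 in DMSO and 7.99, 8.15 and 7.91 in BIX01294. It fell 1.22-fold (adjusted p 0.0237 in limma), and lost its call without DMSO replicate 1 or 2 (adjusted p 0.0583 and 0.0805) or BIX01294 replicate 1 or 3 (adjusted p 0.0695 and 0.0850), each of which left 1 fall in this cluster; without DMSO replicate 3 there were 3.

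ZNF10, also known as KOX1, the source of the KRAB domain used in many engineered repressors, was a dim member on chromosome 12. It measured 6.34, 6.31 and 5.90 in DMSO and 5.81, 5.70 and 5.84 in BIX01294, so that DMSO replicate 3 stood just above the BIX01294 arrays. Its fall of 0.40 ± 0.116 (SE; adjusted p 0.0410 in limma) was lost without DMSO replicate 1 or 2 (adjusted p 0.125 and 0.119) and without BIX01294 replicate 1, 2 or 3 (adjusted p 0.0831, 0.107 and 0.0869), and ZNF605 was then the only fall on chromosome 12. With a mean of 5.98, ZNF10 lay under the lower quartile of gene levels (5.99) and was not shown to be above background.

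ZNF117, near the centromere of chromosome 7, measured 7.46, 7.42 and 7.36 in DMSO and 7.17, 6.88 and 7.26 in BIX01294. The groups did not overlap, with BIX01294 replicate 2 farthest down, and the fall of 0.31 ± 0.096 (SE) passed narrowly (adjusted p 0.0477 in limma). It was lost without DMSO replicate 1, 2 or 3 (adjusted p 0.127, 0.109 and 0.0808) and without BIX01294 replicate 1 or 2 (adjusted p 0.0695 and 0.0771), which left 1 fall in its cluster.

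ZNF92 was the member that rose. This gene, the last of the centromere-near cluster, measured 8.58, 8.61 and 8.63 in DMSO and 8.90, 8.81 and 9.10 in BIX01294. The DMSO arrays lay closely together and below every BIX01294 array, with a rise of 1.25-fold (0.33 ± 0.079 SE, adjusted p 0.0196 in limma). Without DMSO replicate 1 or 2 the rise lost its call (adjusted p 0.0641 and 0.0532), and 0 members were then higher.

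**Figure D3:**
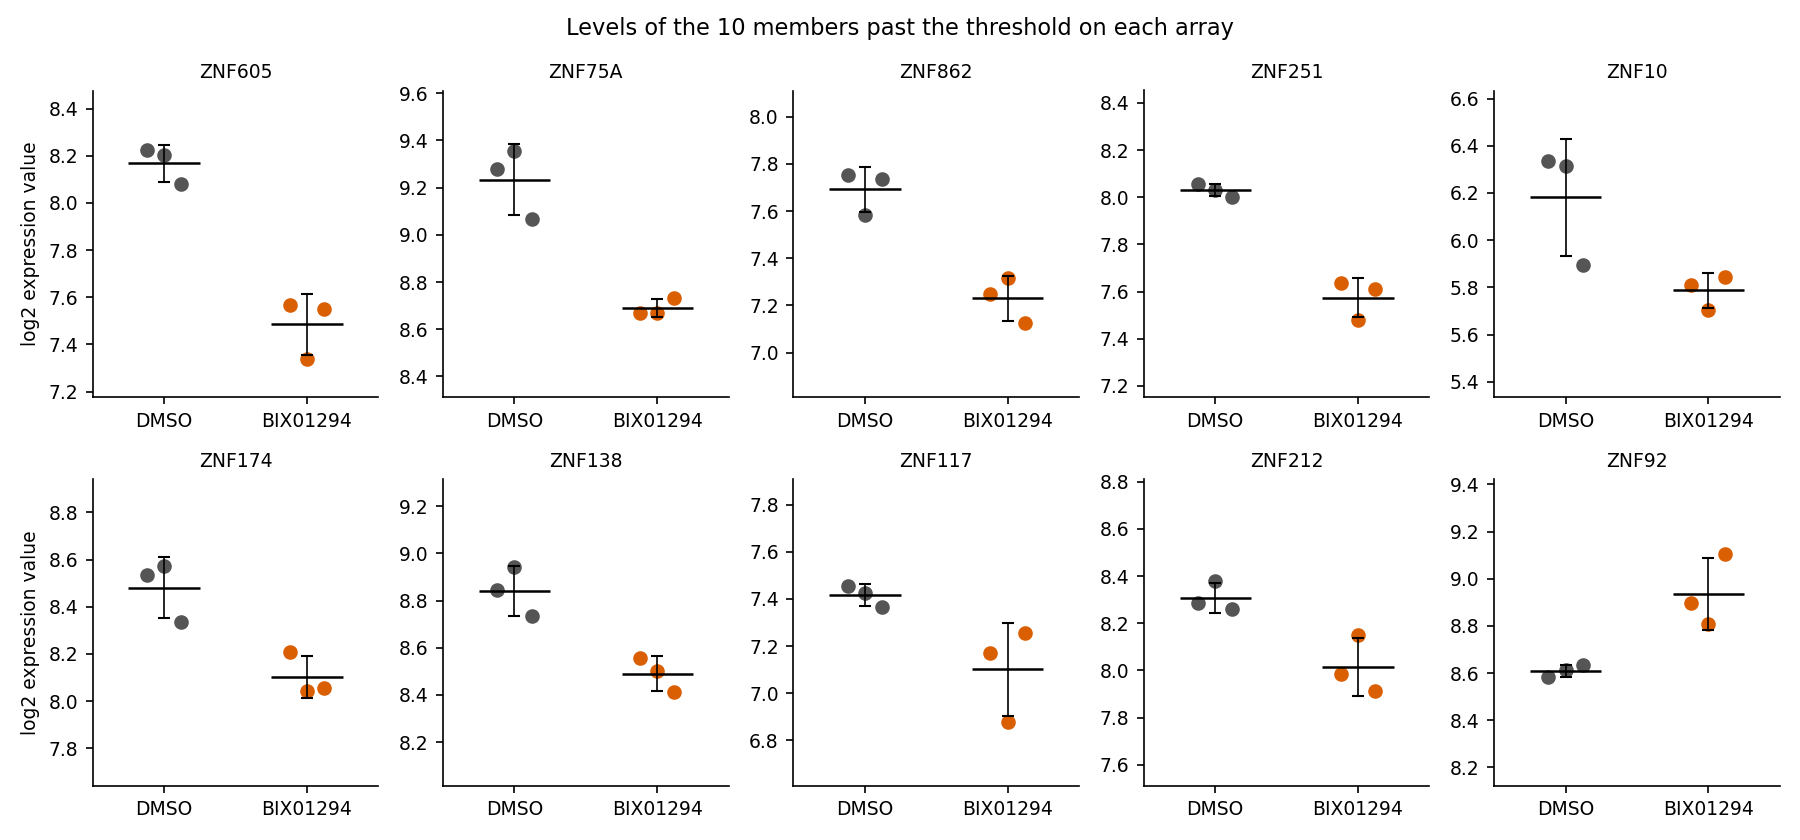
Each panel plots the log2 expression value (y axis, a span of 1.3 in every panel) of 1 of the 10 members past the threshold on the 3 DMSO and the 3 BIX01294 arrays (points), with the mean (line) and SD (bars). The groups do not overlap in any of the 10 panels; the gap is widest for ZNF605 and narrowest for ZNF10, where a DMSO array at 5.90 lies beside a BIX01294 array at 5.84.

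Between these genes stood members whose values hardly differed between the groups. On chromosome 8 the other 5 members, ZNF34, ZNF517, ZNF7, ZNF250 and ZNF16, had log2 changes from -0.04 (ZNF7) to 0.02 (ZNF250), with standard errors of 0.057 to 0.074. ZNF7, the member of this group with the largest change, measured 8.05, 7.99 and 7.79 in DMSO and 7.91, 7.90 and 7.89 in BIX01294, so that the BIX01294 arrays fell inside the DMSO range. On chromosome 12 the largest change that did not pass was that of ZNF140, a KRAB gene, at -0.19 ± 0.075 (SE; adjusted p 0.116 in limma); without DMSO replicate 3 it passed (adjusted p 0.0450), giving 3 falls on chromosome 12. ZNF140 also passed when only genes above the median level were tested (adjusted p 0.0348 in limma). ZNF26, ZNF84 and ZNF268 differed by 0.04, -0.07 and -0.05.

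In the distal chromosome 7 cluster ZNF282, which binds a viral long terminal repeat, measured 8.24, 8.23 and 8.12 in DMSO and 8.0, 7.97 and 8.08 in BIX01294. These groups did not overlap, but the difference of -0.18 ± 0.060 (SE) missed the threshold (adjusted p 0.0655 in limma). Among this cluster's members that did not pass, this adjusted p was the lowest. ZNF425 had the largest change there that did not pass, -0.19 ± 0.090 (SE; adjusted p 0.180 in limma) in its brighter row, while its dimmer row differed by -0.31 and passed when used instead (adjusted p 0.0152), as did the mean of both (adjusted p 0.0445). A member of this cluster other than ZNF425 gained a call after quantile normalization and with the filter at the lower quartile. The same held with array weights and without DMSO replicate 3. ZNF786, ZNF746, a repressor also known as PARIS, and ZNF398 differed by 0.12, 0.07 and 0.02, and ZNF467 and ZNF777 by -0.11 and -0.03.

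Near the centromere of chromosome 7, ZNF680, ZNF107 and ZNF273 differed by 0.03, 0.06 and 0.01, and ZNF713, which had the largest change there that did not pass, by -0.07 ± 0.056 (SE; adjusted p 0.426 in limma). ZNF679 and ZNF716 lay at mean levels of 4.61 and 5.87, under the lower quartile of 5.99, and their differences of -0.02 and -0.05 were those of dim rows. On chromosome 16, ZNF263 differed by -0.17 ± 0.073 (SE; adjusted p 0.143 in limma), and ZNF213, ZNF200, ZNF205 and the imprinted gene ZNF597 differed by -0.08, 0.02, 0.04 and 0.07. ZNF263 passed when only genes above the median level were tested (adjusted p 0.0473 in limma). The standard errors of members had a median of 0.071, close to 0.069 over all genes, so that changes of about 0.2 or less on the log2 scale often could not be told from the spread between arrays. Row brightness depends on the probes as well as the transcript and orders no genes by abundance; the members' levels ran from 4.61 for ZNF679 to 9.53 for ZNF746, and the 9 that fell had a median level of 7.83 against 7.93 for the 27 that did not pass.

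In the RefSeq order of measured genes, most falling members had members beside them that did not pass; ZNF75A and ZNF174 are the falling members that follow each other, with OR2C1 (0.06) and ZSCAN32 between them. Genes that were not measured are left out of this order. ZNF138 lies between ZNF107 and ZNF273, ZNF212 between ZNF282 and ZNF777, and ZNF10 between ZNF140 and ZNF268. Closer to ZNF10, the listed gene ZNF891, which was not measured, starts 352 bases away on the opposite strand. ZNF251 and ZNF605 each have a member on one side (ZNF34 and ZNF26) and on the other a gene of another kind, ARHGAP39 at -0.10 and CHFR at -0.10, neither of which passed. ZNF862 has beside it ATP6V0E2, a subunit of the vacuolar proton pump, which rose by 0.35 ± 0.060 (SE; adjusted p 0.00420 in limma). None of the measured genes named here beside ZNF138, ZNF212, ZNF10, ZNF251, ZNF605 and ZNF862 was called lower. A gene next to each of ZNF117, ZNF75A and ZNF174 was called lower, as given below. ZNF92, the member that rose, lies between ERV3-1, which fell, and VKORC1L1, a relative of the vitamin K epoxide reductase gene, which rose by 0.37 ± 0.054 (SE; adjusted p 0.00209 in limma).

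At 3 places the gene next to a falling member fell too. ERV3-1, the envelope gene of an endogenous retrovirus, overlaps ZNF117 on the same strand, and RefSeq lists a readthrough gene that joins them. ERV3-1 measured 8.75, 8.58 and 8.61 in DMSO and 8.0, 7.90 and 8.03 in BIX01294, a fall of 0.67 ± 0.067 (SE; adjusted p 0.000383 in limma) that was larger in size than the 0.31 of ZNF117; the difference between these falls was not tested. Since the transcripts overlap, rows of the 2 genes may share signal.

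TIGD7, a gene derived from a transposase, starts 66 bases from ZNF75A on the opposite strand. TIGD7 measured 6.42, 6.40 and 6.40 in DMSO and 6.02, 5.71 and 5.69 in BIX01294, a fall of 0.60 ± 0.089 (SE; adjusted p 0.00234 in limma) beside the 0.54 of ZNF75A. ZSCAN32, a SCAN zinc finger gene, likewise starts 210 bases from ZNF174 on the opposite strand. It measured 7.19, 7.16 and 7.18 in DMSO and 7.02, 7.02 and 6.99 in BIX01294, and its small fall of 0.17 ± 0.050 (SE; adjusted p 0.0455 in limma) was lost without any 1 of the 6 arrays (adjusted p 0.0757 to 0.134).

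Such paired starts were looked for in all 29 measured members with a RefSeq promoter, a search added after the falls of TIGD7 and ZSCAN32 were seen. Within 1000 bases, 7 members had a partner starting on the opposite strand, and 5 of those members had a partner that was measured. ZNF398 and ZNF425 are partners of each other, and neither passed; ZNF597 and its partner NAA60 (-0.09, adjusted p 0.238) did not pass either. The pairs of ZNF75A and ZNF174 prompted the search. The calls of ZSCAN32 and of ZNF425, which passed with its dimmer row or the mean of its rows while ZNF398 differed by 0.02, depended on the settings.

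**Figure D4:**
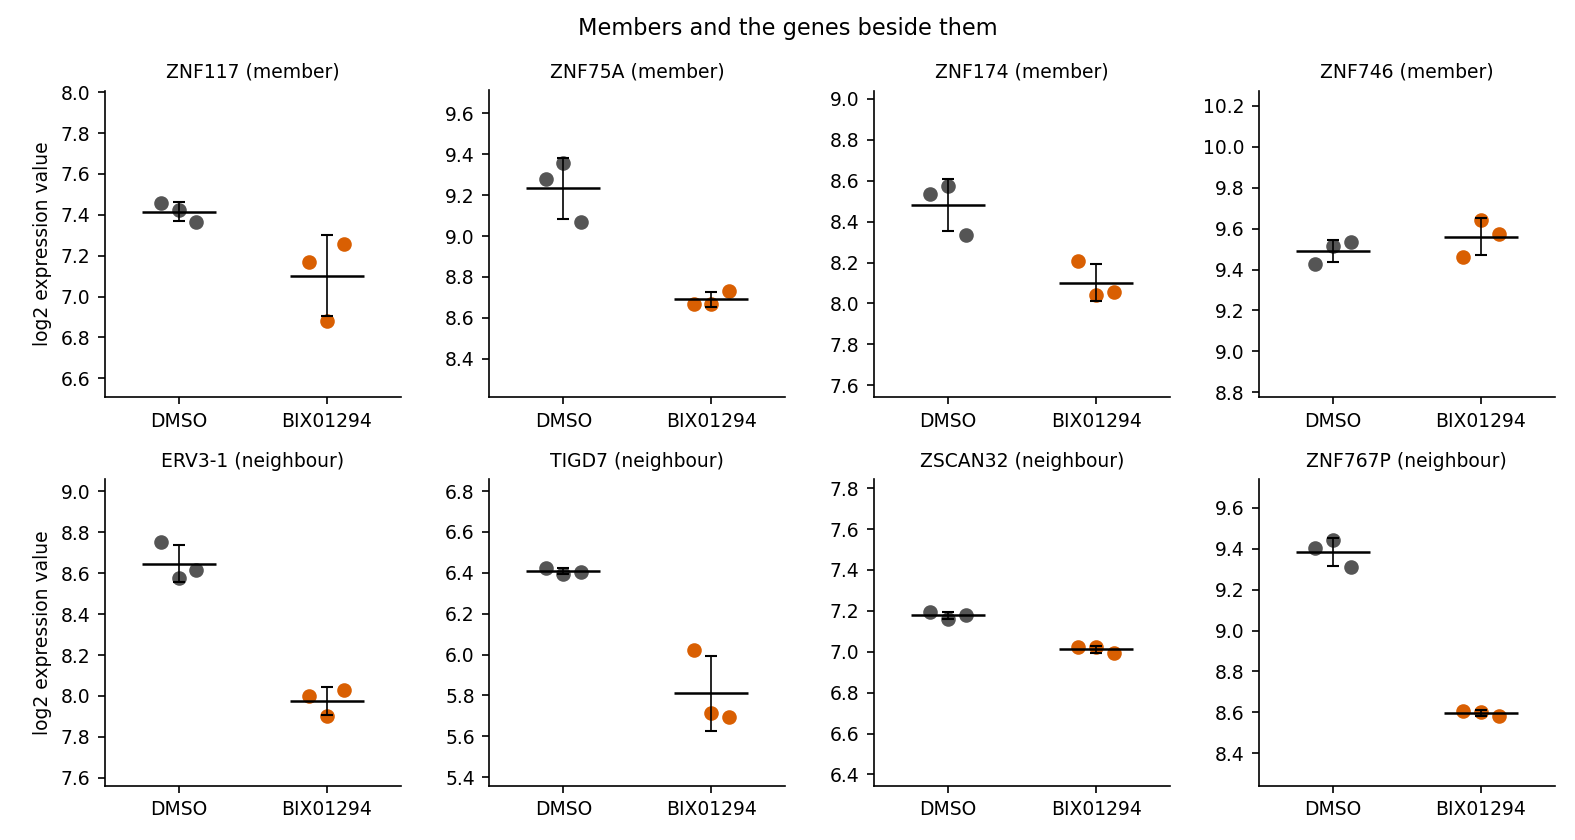
Each panel plots the log2 expression value (y axis, a span of 1.5 in every panel) of 1 gene on the 3 DMSO and 3 BIX01294 arrays (points) with the mean (line) and SD (bars), members above and the gene beside each below. ZNF117, ZNF75A and ZNF174 are lower in BIX01294 together with ERV3-1, TIGD7 and ZSCAN32, whereas ZNF746 differs by 0.07 while ZNF767P falls by 0.79.

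The sequences before the gene starts are shown for ZNF605, ZNF862, ZNF75A and ZNF174, whose falls were steady, and for ZNF92, the member that rose, so that they can be compared. They are from RefSeq on GRCh38.p14, written 5′ to 3′ on the gene's strand and ending at the base before the start: chr12:132956307-132956556 on the minus strand for ZNF605, chr7:149838125-149838374 on the plus strand for ZNF862, chr7:65373605-65373854 on the plus strand for ZNF92, and, for ZNF75A and ZNF174, the whole stretch between the paired starts, chr16:3305431-3305496 and chr16:3401005-3401214 on the plus strand. Capitals mark matches to CCGGAAG, a core of ETS factor sites, or to AAGATGG, a core of YY1 sites, on either strand.
ZNF605: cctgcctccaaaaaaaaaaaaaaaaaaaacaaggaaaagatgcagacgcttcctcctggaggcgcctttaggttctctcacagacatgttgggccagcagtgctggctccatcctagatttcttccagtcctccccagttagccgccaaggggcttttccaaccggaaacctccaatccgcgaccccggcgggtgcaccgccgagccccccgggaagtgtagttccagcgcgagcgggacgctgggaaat
ZNF862: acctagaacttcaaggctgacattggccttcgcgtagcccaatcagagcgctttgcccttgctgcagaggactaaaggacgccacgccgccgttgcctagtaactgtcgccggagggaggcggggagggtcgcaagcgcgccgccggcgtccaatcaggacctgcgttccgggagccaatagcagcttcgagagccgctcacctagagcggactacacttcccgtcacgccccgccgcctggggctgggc
ZNF75A: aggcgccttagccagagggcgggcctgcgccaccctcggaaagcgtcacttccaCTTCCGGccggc
ZNF174: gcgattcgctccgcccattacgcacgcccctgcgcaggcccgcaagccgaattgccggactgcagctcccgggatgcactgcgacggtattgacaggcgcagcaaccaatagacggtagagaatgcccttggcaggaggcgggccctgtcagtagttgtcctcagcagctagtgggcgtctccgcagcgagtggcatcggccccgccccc
ZNF92: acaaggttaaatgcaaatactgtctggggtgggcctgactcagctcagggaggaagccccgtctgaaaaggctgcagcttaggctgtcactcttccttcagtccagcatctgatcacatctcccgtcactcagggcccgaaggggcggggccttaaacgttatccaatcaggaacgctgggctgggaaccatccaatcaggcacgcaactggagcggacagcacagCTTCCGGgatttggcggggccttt

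The short stretch shared by ZNF75A and TIGD7 holds an ETS core, on the strand opposite to ZNF75A and starting 12 bases before its start, and ZNF92 holds one 24 bases before its start; the ZNF605, ZNF862 and ZNF174 stretches hold neither motif. In the full window of 300 bases (50 of them after the start), CCGGAAG was found in 9 of the 29 members with a promoter, including 3 of 8 that fell and 5 of 20 that did not pass. The 3 were ZNF138, ZNF75A and ZNF174, whose match lies outside the stretch printed for it. CCGGAAG is counted on either strand. It was found in 14.6% of the promoters of 14230 tested genes and in 43.6% of those of 204 ZNF genes on chromosome 19. AAGATGG was found in 0 of the 29 and in 6.51% of the tested genes. The members' windows held a median of 25 CpG dinucleotides against 23 over the tested genes. The falling members had a median of 25 and those that did not pass 25.5, a difference that was not tested.

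Genes without a zinc finger symbol that lie between the outermost members were also counted. Of 35 such protein-coding genes in RefSeq, 17 were measured, 5 of which were lower (29.4%) and 1 higher (5.88%), with a median change of -0.03. Among all genes 10.7% were lower and 12.9% higher, and among the members 24.3% were lower. The members' share of falls was thus not above that of these few neighbours, a comparison that was not tested. The neighbours are spread unevenly: 10 of the 17 lay in the interval near the chromosome 7 centromere, and 3 of these were lower. Some are also tied to members, since ERV3-1 overlaps ZNF117 and TIGD7 starts 66 bases from ZNF75A. The largest falls among the 17 were those of PSPH, a serine synthesis enzyme (-0.83), and ERV3-1 near the chromosome 7 centromere, and of TIGD7 and the olfactory receptor gene OR1F1 (-0.52 ± 0.052 SE, adjusted p 0.000378 in limma) on chromosome 16. None of the 17 lay in the chromosome 12 interval.

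Of 9 further genes with zinc finger symbols inside the intervals, 3 were measured: ZSCAN32, ZNF479, a dim gene at 0.06, and ZNF767P. ZNF767P, a transcribed pseudogene that lies between ZNF746 and ZNF467 in the distal chromosome 7 cluster, measured 9.40, 9.44 and 9.31 in DMSO and 8.61, 8.60 and 8.58 in BIX01294. Its fall of 0.79 ± 0.056 (SE; adjusted p 9.41e-05 in limma) was larger than that of any member, while ZNF746 and ZNF467 on either side did not pass.

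Of 25 genes for the KRAB corepressor, the HUSH silencing complex and H3K9 methylation, a list written with earlier results of these data known, 5 were lower (20.0%), 2 higher (8.0%) and 18 did not pass. The shares of all genes were 10.7% lower and 12.9% higher. SETDB1, the methyltransferase that TRIM28 recruits, fell by 0.51 ± 0.059 (SE; adjusted p 0.000753 in limma), and ATF7IP, its partner protein, fell by 0.58 ± 0.052 (SE; adjusted p 0.000258 in limma). ZNF274 fell by 0.45 (from 8.16 ± 0.06 to 7.71 ± 0.10, SD, n = 3 per group), a size close to that of ZNF862 and ZNF251. HDAC1, a histone deacetylase, fell by 0.37, and the methyltransferases SUV39H1 and SUV39H2 rose by 0.41 and 0.36. TRIM28 differed by 0.16 ± 0.060 (SE; adjusted p 0.0927 in limma), and passed with a higher value in a test of only the brighter genes, those above the median (adjusted p 0.0256), and with an intensity trend and robust estimation (adjusted p 0.0213). EHMT1 and EHMT2 did not pass (0.11, adjusted p 0.226, and 0.00, adjusted p 0.998 in limma).

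The arrays carried the markers of the labelled line: MYCN lay at 13.54 in DMSO and 13.46 in BIX01294, and the 9 measured neuroblastoma markers of 11 listed had mean levels from 9.49 to 13.50. Of these 9, 3 fell (GATA3 by 0.23, PHOX2A by 0.20 and CHGA by 0.19), 2 rose (ISL1 by 0.34 and GATA2 by 0.21) and 4 did not pass. For comparison, 10.7% of all genes were lower and 12.9% higher. Of 8 markers of mesenchymal or Schwann-like cells, 3 rose, VIM by 0.82, CD44 by 0.49 and S100B by 0.42, and 5 did not pass, with the mean over the list at 7.01 to 7.11 in the DMSO arrays and 7.26 to 7.31 in the BIX01294 arrays. Their part in the changes of the zinc finger genes was not tested, and a lower level per cell cannot be told apart from fewer cells that express a gene.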

How the data were processed

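RNA of 3 BIX01294 and 3 DMSO samples was measured on 1 array each. The deposited table gives log2 values, a scale inferred from their range (1.93 to 14.93, with array medians of 6.94 to 7.01). Per the submitters' processing notes Partek was used; how probes were background-corrected, normalized and summarized is not given in the sources used here, and arrays may have been scaled to each other, which would hide a shift shared by most genes. There is no detection call, and precision is limited by the few arrays.

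The table has 32321 rows, 19158 of them with a single symbol, and Entrez identifiers of 19128 of these matched RefSeq (GRCh38.p14), used for names and gene order. The row with the highest mean was kept per gene (637 of 18404 genes had several). ZNF783 and ZNF735 had rows only shared with other genes; ZNF727, ZNF736 and ZNF891 were not analysed here.

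The test was limma 3.58.1 in R 4.3.3 (treatment as the only term, empirical Bayes, two-sided, no filter on dim genes), with Benjamini-Hochberg adjustment over all genes and a threshold of 0.05; it was tested on simulated data. An exact permutation test of 3 against 3 cannot go below 0.1. The members and lists were chosen with earlier results of these data known. Named are all members past the threshold, in each cluster the largest change that did not pass, members whose rows disagree, the brightest and dimmest members, and by size of change the neighbours (up to 2 per cluster) and listed genes (up to 4 beyond EHMT1, EHMT2, TRIM28, SETDB1 and ZNF274); other members are named for completeness, and genes beside a member that fall outside these rules were named after their values were seen. Promoter windows of 34 of the 42 listed members were found by symbol, 29 of them measured. None was found for the chromosome 8 members, ZNF777 or ZNF746, so counts of promoters and paired starts leave these out. The planned protein features were not analysed here.

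Same-numbered arrays of the 2 groups did not deviate together (correlations of 0.19, -0.18 and 0.05), so numbers were not taken as pairs. Correlations between differently numbered arrays ran from -0.32 to 0.29. A batch that the numbers do not mark was not tested. Arrays of a group differed by a median of 0.083 to 0.116. The alternatives were 2 scalings, 2 filters on dim genes, 2 other uses of a gene's rows, rows with several symbols, trend with robust estimation, array weights, a replicate block, treat with a minimum of 0.5 and leaving out each array.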

Additional observations from a re-analysis of the deposited data

How the results depend on the processing

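Over all genes 54.7% of calls were higher as deposited, 49.7% after quantile normalization and 64.3% after centring. The members' 9 falls were 7 to 10 in the alternatives that kept all arrays, treat excepted (7 with the replicate block, which is given although the numbers pair no samples), and 6 to 10 when 1 array was left out; the rises were 1 throughout, and 0 to 1 with an array left out. Equal counts need not mean the same genes. With the filter at the median the falls were 9 too, but ZNF862, ZNF117 and ZNF10 were not tested there. ZNF140, ZNF263 and a further member of the distal chromosome 7 cluster passed instead. Treat with a minimum of 0.5 called 0 members in either direction and in any cluster, and 9 of the 237 chromosome 19 genes. In the centromere-near cluster of chromosome 7 the falls were 1 after quantile normalization, centring, the filter at the median, the mean of a gene's rows, the replicate block and with rows of several symbols added, 0 with the row of the lowest mean, and 1 to 2 with an array left out, with rises of 0 to 1 there. In the distal cluster of chromosome 7 they were 3 after quantile normalization, with the filter at the lower quartile, the mean of rows, the row of the lowest mean and array weights, and 1 to 3 with an array left out (3 without DMSO replicate 3). On chromosome 12 they were 1 after quantile normalization, centring, the filter at the lower quartile (which removed ZNF10) and the replicate block, and with an array left out 3 without DMSO replicate 3 and 1 without any other. The counts on chromosomes 8 and 16 (1 and 2) were otherwise the same, except 3 on chromosome 16 with the filter at the median. The chromosome 19 falls were 76 with that filter, which left 124 of those genes, and 103 to 130 with an array left out. ZNF138 turned to 0.13 with the row of the lowest mean. Of 156 values of the 10 members past the threshold, treat not counted, 130 kept their call, 25 lost it and 1 turned. In each cluster the largest change that did not pass was followed too, for ZNF713, ZNF425, ZNF7, ZNF140 and ZNF263. Of their 79 values 5 gained a call, and other members are not in this count. The cause was not tested.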

Other observations

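Rows that name a member together with other genes stood outside the comparison. The row shared by ZNF783 and another gene measured 7.64, 7.70 and 7.66 in DMSO and 7.26, 7.64 and 7.64 in BIX01294, so that only BIX01294 replicate 1 stood apart, and it did not pass in limma over all rows (-0.15, adjusted p 0.440). A row shared by ZNF735, ZNF716 and 2 other genes varied within the groups by more (SD 1.23 and 0.51) than the difference of 0.42 between them: 5.69, 4.17 and 6.61 in DMSO and 6.34, 5.34 and 6.05 in BIX01294. A second row of the same 4 genes measured 4.23 to 4.51 in DMSO and 4.30 to 4.38 in BIX01294.

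Just beyond the chromosome 8 cluster, the transcribed pseudogene ZNF252P, chosen after its value was seen, rose by 0.39 (adjusted p 0.00496 in limma over all genes), where ZNF16, the nearest member, differed by -0.02.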
